A study of Mus musculus with 6 samples.

Results

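Anti-PD-1 was added to the kinase inhibitors AZD5363 and MK1775 in mice carrying B16F10 melanoma, and the tumour RNA of that combination was set against tumour RNA from the inhibitors given with control IgG. Both groups therefore received AZD5363, an AKT inhibitor, and MK1775, a WEE1 inhibitor, and they differed by the antibody. The comparison addresses what PD-1 blockade added to the inhibitors. It covered the 2793 genes with at least 20 counts in either library, of 43629 genes in the count table and 13265 with any count in these libraries. Each treatment was 1 library made from pooled tumours of 8-week-old female C57BL/6J mice, injected under the skin with B16F10 cells and treated every day until control tumours measured 2000 mm3. How many mice stand behind a pool, and at which doses, the labels do not state. The 4 other libraries of the series were DMSO with anti-PD-1 (anti-PD-1), DMSO with control IgG (control), KS100 with anti-PD-1 and KS100 with control IgG, where KS100 inhibits aldehyde dehydrogenases. Below, the AZD5363+MK1775+anti-PD-1 library is called the combination pool and the AZD5363+MK1775 library the inhibitor pool.

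PD-1 is a receptor that restrains activated T cells when it binds its ligand PD-L1, and antibodies against it release that restraint. Activated T cells and NK cells secrete interferon-gamma, which acts through transcription factors such as IRF1 and induces GTPases of the GBP and IRG families, the immunoproteasome and MHC molecules in tumour and host cells. AKT carries growth signals from PI3 kinase and holds FOXO transcription factors inactive, and WEE1 delays mitosis by inhibiting CDK1. B16F10 is a pigmented mouse melanoma line known for low MHC class I at rest, which interferon-gamma can raise.

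The combination pool held 338474 counts and the inhibitor pool 26639. A count of 0 allows up to 3 counts, or 8.86 CPM (counts per 1000000 counts of the library) in the combination pool and 112.6 CPM in the inhibitor pool. Of the 2793 genes, 147 reached 20 counts in both pools, 2636 in the combination pool alone and 10 in the inhibitor pool alone, and 599 had 0 counts in the inhibitor pool. At the edge of the filter, 143 genes had a higher count of exactly 20 and 152 genes, left out, one of 19. Pigment cell transcripts were found in both pools, with Dct (dopachrome tautomerase) at 2432 counts in the combination pool and 174 in the inhibitor pool and Pmel (melanosome fibril protein) at 315 and 17 in the same order, as the melanoma label implies.

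Ratios are combination over inhibitor pool on depths scaled by TMM (trimmed mean of M-values), followed by the 95% exact conditional interval, which covers counting error only. A gene was called higher at a ratio of at least 2 with the whole interval above 1.5, and lower by the mirror rule. With 1 library a side there is no replicate check and no p-value. By this rule 309 genes were higher (11.1% of those tested) and 104 lower (3.72%). On library totals every log2 ratio dropped by 0.80 and the split became 76 higher and 232 lower, all 76 being among the 309. Only genes with at least 43 counts in the combination pool could be called higher against 0, so at this depth a gene with 20 to 42 counts there and 0 in the inhibitor pool could not be called. Across the genes tested the median log2 ratio was 1.10, and it was -0.73 among the 147 genes with 20 counts in both pools.

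**Figure D1:**
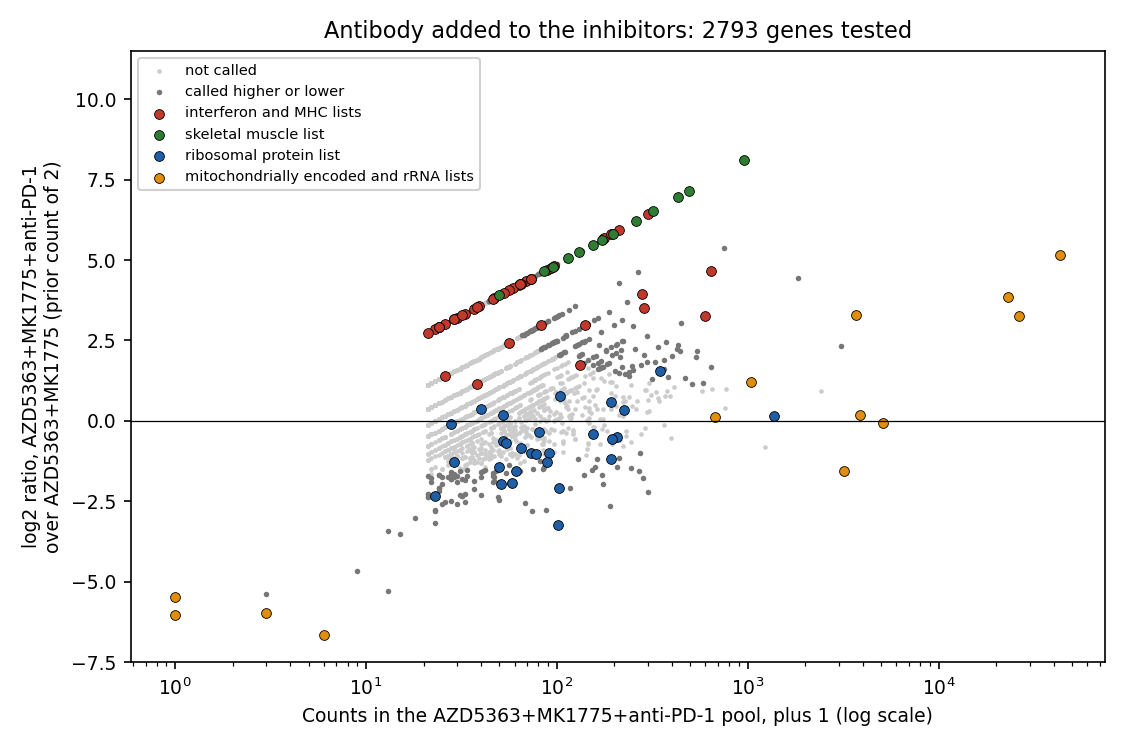
Each point is 1 of the 2793 genes tested, with its count plus 1 in the combination pool on a log axis and its log2 ratio of combination over inhibitor pool (prior count of 2) on the other. The muscle genes and 34 of the 44 interferon and MHC genes lie along the upper edge formed by genes with 0 counts in the inhibitor pool. Most ribosomal protein genes lie below 0.

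Interferon-inducible and antigen-presentation genes were higher in the combination pool as a group. The 85 genes with a row in the interferon-gamma, type I interferon, MHC class I and MHC class II lists summed to 5030 counts in the combination pool, 1.49% of it, and to 30 counts in the inhibitor pool, 0.113% of it, a ratio of 22.9 (16.03 to 34.0). Of these genes 44 were tested, 26 were higher and none was lower, which is 59.1% higher against 11.1% of all genes tested. None of the 44 had 20 counts in the inhibitor pool, where the highest count was 8, for B2m, so each passed the filter through the combination pool alone and its count of calls is a description. Of the 34 with 0 counts in the inhibitor pool, 20 were higher (58.8%), beside 150 of all 599 such genes (25%). On library totals 12 of the 26 were still higher and none was lower. The 12 were Iigp1, Igtp, Irf1, Gbp7, Rsad2, Ifi47, H2-K1, H2-D1, B2m, Ctss, H2-Aa and H2-Eb1. Skeletal muscle transcripts (3466 counts in the combination pool, 0 in the inhibitor pool) and ribosomal RNA (27.4% and 2.86% of counts in the same order) moved with these genes, and their part in the result was not tested. In RNA from whole tumours, more cells of a type and more RNA per cell cannot be told apart.

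Among interferon-gamma response genes, the GTPases and their regulators were led by Iigp1, Igtp, Irf1 and Gbp7. Iigp1, an immunity-related GTPase that attacks the vacuoles of intracellular parasites, had 300 counts in the combination pool and 0 in the inhibitor pool, at least 13.7-fold higher against 3 counts. Igtp (Irgm3, chromosome 11, 58199556 to 58207591, GRCm38, plus strand), a regulator of the same GTPase family, had 210 and 0 counts, at least 9.56-fold higher. These transcripts were below detection in the inhibitor pool and plentiful in the combination pool. Irf1, a transcription factor that interferon-gamma induces, had 192 counts in the combination pool and 0 in the inhibitor pool, at least 8.74-fold higher. Gbp7, a guanylate-binding GTPase, had 176 and 0 counts, at least 8.02-fold higher.

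Over the whole interferon-gamma list of 23 genes the counts summed to 1547 in the combination pool and 2 in the inhibitor pool, a ratio of 105.7 (29.2 to 873). Of 15 members tested 11 were higher and none lower, among them Irgm1, Irgm2, Tgtp1, Gbp2, Gbp4 and Irf8 at 45 to 68 counts against 0. The members not past the rule with the most counts were Gbp3, at 36 counts against 0, and Tgtp2, at 28 against 0. Tgtp1 and Tgtp2 are nearly identical and their single values are uncertain. Ciita, the master regulator of MHC class II, had 25 counts in the combination pool and 0 in the inhibitor pool and was not past the rule.

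Type I interferon effector genes summed to 993 counts in the combination pool and 11 in the inhibitor pool, a ratio of 12.3 (6.86 to 24.8). Of 12 tested 4 were higher (33.3%) and none lower, beside 11.1% and 3.72% of all genes tested. Rsad2, which encodes the antiviral enzyme viperin, had 278 counts in the combination pool and 2 in the inhibitor pool, a ratio of 18.99 (5.21 to 158). Ifi47, an interferon-induced GTPase, had 92 and 0 counts, at least 4.19-fold higher, and the ubiquitin-like modifier gene Isg15 had 55 and 0, at least 2.50-fold higher. Trim30a was the other gene called, at 52 and 0 counts. Bst2, which tethers budding virus particles, was not past the rule at 131 counts in the combination pool and 5 in the inhibitor pool, a ratio of 3.58 (1.496 to 11.2).

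Of the 11 MHC class I and immunoproteasome genes tested, 6 had 0 counts in the inhibitor pool, while the classical chains and the light chain were detected in both pools. H2-K1 (chromosome 17, 33996017 to 34000347, minus strand), a classical class I heavy chain, had 643 counts (1900 CPM) in the combination pool and 3 (112.6 CPM) in the inhibitor pool, a ratio of 29.3 (9.98 to 142). H2-D1, the other classical heavy chain of this strain, had 284 and 3 counts, a ratio of 12.9 (4.38 to 63.1), and the 2 heavy chains are similar enough in sequence that reads may be split between them. B2m, the light chain shared by all class I molecules, had 593 counts (1752 CPM) in the combination pool and 8 (300.3 CPM) in the inhibitor pool, a ratio of 10.1 (5.11 to 23.6). These 3 chains were higher in the combination pool, and the heavy chain gene H2-T22 was not past the rule.

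The peptide supply for class I showed the same direction. Psmb8 and Psmb9, catalytic subunits of the immunoproteasome, had 72 and 46 counts in the combination pool and 0 each in the inhibitor pool, at least 3.28-fold and 2.095-fold higher. Tap1, a subunit of the peptide transporter, had 72 and 0 counts, at least 3.28-fold higher, and Tapbp (tapasin), which loads peptides, 82 and 1, a ratio of 11.2 (1.96 to 448). Psme1 (proteasome activator) and Psmb10 were not past the rule, at 55 counts against 1 and 37 against 0. The list of 20 genes summed to 2015 counts in the combination pool and 17 in the inhibitor pool, a ratio of 16.2 (10.1 to 27.9), with 7 of 11 tested higher and none lower. The constitutive proteasome, whose catalytic subunits the immunoproteasome replaces, summed to 1375 and 159 counts, a ratio of 1.18 (1.00 to 1.40). Of its 22 genes tested 4 were higher (18.2%) and 1 lower (4.55%), beside 11.1% and 3.72% of all genes tested.

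MHC class II genes had no count in the inhibitor pool. Their 11 members summed to 506 counts in the combination pool, at least 23.05-fold higher against 3 counts. Ctss (cathepsin S), which trims the invariant chain, had 173 counts against 0, at least 7.88-fold higher, and the class II chains H2-Aa, H2-Eb1 and H2-Ab1 had 95, 88 and 62 counts against 0. The class II genes not past the rule were H2-DMb1, Cd74 (the invariant chain) and Ciita, at 23 to 25 counts in the combination pool and 0 in the inhibitor pool, where a call against 0 needed 43.

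**Figure D2:**
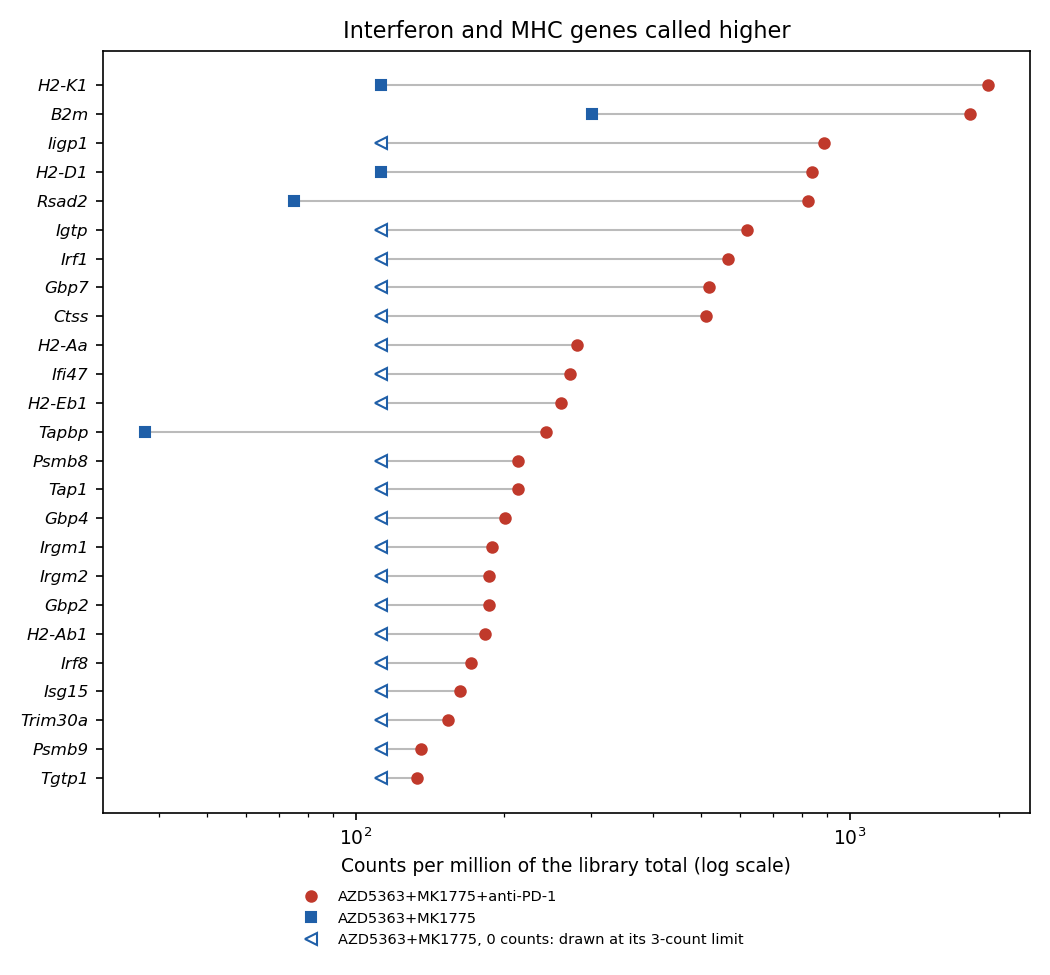
CPM of the library total, on a log axis, of interferon and MHC genes called higher, with circles for the combination pool and squares for the inhibitor pool. An open triangle marks a gene with 0 counts in the inhibitor pool, drawn at the 112.6 CPM that 3 counts would give, and every circle lies to the right of its partner.

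The promoters of these genes were read for the binding motifs of the interferon pathway. The calls did not use the motifs, but the lists were chosen as interferon and MHC genes. A high motif share therefore follows from the choice of lists and is a description of them. The interferon-stimulated response element, bound by complexes with IRF proteins, was searched as GAAA, any 2 bases and GAAA again, and the interferon-gamma activated site (GAS) as TTCNNNGAA, on both strands, over 250 bases before and 50 after the start in RefSeq promoters of GRCm38.p6. Promoters were found for 22 of the 26 genes called higher, 26 promoters in all. The response element was in 46.2% of them, against 3.61% of the promoters of all genes tested and 3.44% of all promoters of the table. The GAS motif was in 26.9%, against 6.19% and 8.30% in the same sets. Among the 283 other genes called higher 3.81% of promoters held the response element, and none of 11 muscle promoters did. The members tested but not called held it in 50% of 18 promoters, so the motif did not separate called from uncalled members.

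The following 6 promoters are shown because they belong to the called interferon and MHC genes, whose interval lay farthest from 1 and whose promoter in the table held either motif. The regions are chr11:58199306-58199605 for Igtp, chr11:53769764-53770063 for Irf1, chr3:142530086-142530385 for Gbp7, chr3:95526536-95526835 for Ctss, chr12:26456403-26456702 on the minus strand for Rsad2 and chr2:122147437-122147736 for B2m. Sequences run 5′ to 3′ along the gene and capitals mark the motif matches.
Igtp: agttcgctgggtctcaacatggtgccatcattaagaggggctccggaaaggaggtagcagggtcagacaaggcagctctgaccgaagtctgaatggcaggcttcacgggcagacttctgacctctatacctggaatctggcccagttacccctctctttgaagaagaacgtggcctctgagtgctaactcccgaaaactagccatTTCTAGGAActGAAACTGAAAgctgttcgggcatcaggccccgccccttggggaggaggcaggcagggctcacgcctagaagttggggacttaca
Irf1: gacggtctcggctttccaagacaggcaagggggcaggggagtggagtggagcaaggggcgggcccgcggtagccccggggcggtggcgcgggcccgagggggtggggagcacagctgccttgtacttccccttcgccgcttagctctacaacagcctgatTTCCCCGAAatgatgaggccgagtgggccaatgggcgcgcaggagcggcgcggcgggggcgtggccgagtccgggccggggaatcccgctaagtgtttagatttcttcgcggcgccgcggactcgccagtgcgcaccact
Gbp7: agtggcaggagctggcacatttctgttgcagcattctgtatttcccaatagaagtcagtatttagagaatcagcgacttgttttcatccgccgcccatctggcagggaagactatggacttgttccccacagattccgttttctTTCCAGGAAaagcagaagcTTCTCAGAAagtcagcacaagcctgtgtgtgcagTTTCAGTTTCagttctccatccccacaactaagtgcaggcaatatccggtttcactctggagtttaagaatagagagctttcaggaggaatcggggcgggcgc
Ctss: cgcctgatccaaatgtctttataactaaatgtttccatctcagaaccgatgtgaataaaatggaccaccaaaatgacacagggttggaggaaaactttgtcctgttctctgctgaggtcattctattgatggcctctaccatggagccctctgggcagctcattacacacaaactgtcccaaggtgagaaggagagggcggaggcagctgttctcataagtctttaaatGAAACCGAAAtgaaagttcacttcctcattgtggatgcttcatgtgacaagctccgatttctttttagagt
Rsad2: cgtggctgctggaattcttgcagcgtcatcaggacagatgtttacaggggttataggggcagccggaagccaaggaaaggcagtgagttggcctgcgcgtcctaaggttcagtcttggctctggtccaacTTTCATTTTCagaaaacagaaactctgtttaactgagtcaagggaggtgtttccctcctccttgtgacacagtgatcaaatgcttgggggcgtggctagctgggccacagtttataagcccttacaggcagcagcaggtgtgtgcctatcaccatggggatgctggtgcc
B2m: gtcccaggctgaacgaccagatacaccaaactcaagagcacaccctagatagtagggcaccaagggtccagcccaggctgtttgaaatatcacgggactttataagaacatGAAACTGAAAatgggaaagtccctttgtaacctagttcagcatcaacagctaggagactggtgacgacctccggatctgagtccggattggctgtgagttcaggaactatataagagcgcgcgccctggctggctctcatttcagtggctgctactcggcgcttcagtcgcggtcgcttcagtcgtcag

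In Igtp the GAS match and the response element lie next to each other, beginning 45 and 34 bases before the start. Gbp7 held 2 GAS matches, beginning 106 and 87 bases before the start, and a response element at 53. Irf1 held a GAS match alone, at 90 bases before the start. Ctss, Rsad2 and B2m held a response element alone, beginning 21, 120 and 139 bases before the start. A match is a description of the letters in the window. Binding was not measured.

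The same lists were read in the other arms, whose pairs share no library with the inhibitor pair. In the arm without inhibitors the interferon and MHC lists summed to 2311 counts with anti-PD-1 and 3928 in the control pool, a ratio of 0.909 (0.863 to 0.957). Of 31 tested there none was higher and 2 were lower, beside 2.69% of all 8119 genes higher and 2.14% lower. B2m stood at 702.5 CPM with anti-PD-1 and 826.2 CPM in the control pool, both between the combination pool and the inhibitor pool. Igtp stood at 26.9 and 39.6 CPM, under the 112.6 CPM that 0 counts in the inhibitor pool allow. In the KS100 arm none of these genes reached 20 counts. Its interferon-gamma list summed to 28 counts in the KS100+anti-PD-1 pool and 11 in the KS100 pool, a ratio of 4.88 (2.36 to 10.9) and past the rule as higher, while the MHC class I list held 5 and 16, a ratio of 0.599 (0.172 to 1.71). No difference between arms was tested, since each rests on single libraries.

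Genes of T cells and NK cells had few counts each. The T cell list of 23 genes summed to 45 counts in the combination pool and 1 in the inhibitor pool, a ratio of 6.15 (1.05 to 248), with 11 of the 45 from Lck and 8 genes, among them Cd4 and Trac, at 0 in both pools. The cytotoxic and NK list summed to 32 and 0 counts, at least 1.46-fold higher, with Ccl5 at 11, Prf1 (perforin) and Nkg7 at 5 each, Gzmb at 3 and Ifng at 0 in both pools. No gene of either list reached 20 counts. Of the checkpoint genes, Cd274 (PD-L1, itself an interferon-gamma target) had 19 counts in the combination pool and 0 in the inhibitor pool, 1 short of the filter, Pdcd1 (PD-1) had 1 and 0, and Pdcd1lg2 (PD-L2) 0 in both. The B cell list held 5 and 0 counts, with Cd79a at 0.

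Myeloid and chemokine genes were few but among them some were higher. Cxcl9, the interferon-gamma-induced ligand of the T cell receptor CXCR3, had 54 counts in the combination pool and 0 in the inhibitor pool, at least 2.46-fold higher, and Cxcl10, another ligand of that receptor, had 101 and 3, a ratio of 4.60 (1.53 to 22.7). They were the only members of the chemokine list tested, and the list summed to 257 and 4 counts, a ratio of 8.78 (3.39 to 32.5). C1qa, a complement gene of macrophages, had 82 and 0 counts, at least 3.73-fold higher, while Apoe had 73 and 12, a ratio of 0.831 (0.448 to 1.68). The macrophage list summed to 275 and 13 counts, a ratio of 2.89 (1.66 to 5.50), and to 1.67 on library totals, where it was not past the rule. Ptprc (CD45), carried by all leukocytes, had 40 counts against 0 and was not past the rule, and Arhgdib was lower at 23 against 11, a ratio of 0.286 (0.134 to 0.649). In the arm without inhibitors the chemokine list stood at 2.13 (1.83 to 2.49) and the macrophage list at 1.94 (1.77 to 2.12), anti-PD-1 over control. Dendritic cell genes held 11 and 3 counts and neutrophil genes 5 and 1, with no member tested.

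Skeletal muscle transcripts were present in the combination pool and undetected in the inhibitor pool. The list of 15 genes summed to 3466 counts, 1.02% of the combination pool, and to 0 in the inhibitor pool, at least 158-fold higher, and all 13 tested were higher. Ttn (titin, chromosome 2, 76703980 to 76982547, minus strand) had 958 counts against 0, at least 43.6-fold higher, and Acta1 (skeletal actin) 492 against 0, at least 22.4-fold higher. Myh4 (fast myosin) had 430 counts, Ckm (muscle creatine kinase) 319, Tnnc2 259 and Tnnt3 195, each against 0. In the arm without inhibitors muscle genes summed to 886 counts with anti-PD-1 and 114 in the control pool, a ratio of 12.0 (9.87 to 14.7). In the KS100 arm they summed to 26 counts with anti-PD-1 and 16 without, a ratio of 3.12 (1.61 to 6.22). The muscle list was thus past the rule as higher in the antibody pool of all 3 arms, and the part of host muscle in the sampled tissue was not tested.

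Other tissue markers were sparse. Fibroblast and matrix genes summed to 545 counts in the combination pool and 18 in the inhibitor pool, a ratio of 4.14 (2.59 to 7.03), and to 2.38 on library totals, where the list was not past the rule, and stood at 5.16 (4.80 to 5.55) in the arm without inhibitors. Sparc, a matrix glycoprotein, had 325 and 12 counts, a ratio of 3.70 (2.09 to 7.24), and Col1a2 (collagen) 79 and 0, at least 3.60-fold higher, while Col1a1 had 28 and 2. Lpl (lipoprotein lipase) had 63 counts against 0, at least 2.87-fold higher, and was the only fat cell gene tested, with Adipoq and Plin1 at 0. The endothelial list held 90 and 6 counts, a ratio of 2.05 (0.906 to 5.73), with Kdr (VEGF receptor) at 24 against 0. Globin and erythroid genes held 22 and 8, and keratinocyte genes 2 and 0.

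The melanoma cells' own lineage genes changed less than the interferon genes. Pigment genes summed to 5448 counts in the combination pool and 400 in the inhibitor pool. The ratio of 1.86 (1.68 to 2.06) became 1.07 on library totals. Of 17 tested 5 were higher (29.4%) and 1 lower (5.88%), beside 11.1% and 3.72% of all genes tested. Dct was at 1.91 (1.64 to 2.24) and not past the rule, and Pmel was higher at 2.53 (1.56 to 4.40). Syt4 (a synaptotagmin), Tspan10 and Rab38, which delivers enzymes to melanosomes, were higher at 423 against 12, 220 against 5 and 123 against 2 counts. Ptgds (prostaglandin D synthase) was lower at 24 counts in the combination pool and 22 in the inhibitor pool, a ratio of 0.149 (0.0801 to 0.279). Mitf, the master regulator of the lineage, was higher at 200 and 9 counts, a ratio of 3.04 (1.57 to 6.74), while Sox10 and Met were not past the rule, and the lineage list summed to 1.37 (1.10 to 1.73), or 0.789 on library totals.

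The kinases that the inhibitors act on were mostly below the filter. Akt1 had 112 counts in the combination pool and 8 in the inhibitor pool, a ratio of 1.91 (0.938 to 4.54), Akt2 had 7 and 0, Wee1 1 and 0, and Pkmyt1, a related kinase, 4 and 0. Cdk1, the kinase that WEE1 restrains, had 30 and 12 counts, a ratio of 0.342 (0.170 to 0.733), and was not past the rule. On library totals the Cdk1 ratio was 0.197 and past the rule as lower. The list of AKT and WEE1 partners summed to 486 and 24 counts, a ratio of 2.77 (1.84 to 4.36), or 1.59 on library totals, where it was not past the rule, and the member called was the DNA damage kinase Atm at 87 against 0. FOXO target genes summed to 226 and 16 counts, a ratio of 1.93 (1.16 to 3.43), with Klf6 called at 64 against 0 and Txnip not called at 44 against 2.

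Of the D-type cyclins, Ccnd1 and Ccnd2 were higher in the combination pool and Ccnd3 did not pass the rule. Ccnd2 had 432 counts in the combination pool and 11 in the inhibitor pool, a ratio of 5.37 (2.97 to 10.8), and Ccnd1 had 248 and 4, a ratio of 8.47 (3.27 to 31.3). Both drive entry into S phase with CDK4 and CDK6. Cdc25a, the phosphatase that opposes WEE1, had 79 and 1 counts, a ratio of 10.8 (1.88 to 432). The list of G1 cyclins and partners summed to 1046 and 36, a ratio of 3.97 (2.85 to 5.70). Of 7 tested 3 were higher (42.9%) and none lower, beside 11.1% and 3.72% of all genes tested. Ccnd3 and the CDK inhibitor Cdkn1a were not past the rule at 81 against 4 and 54 against 1.

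Genes of mitosis and DNA replication summed to ratios that a change of scaling brought near 1. Mitosis genes summed to 1315 counts in the combination pool and 94 in the inhibitor pool. The ratio was 1.91 (1.55 to 2.38), or 1.10 on library totals. Beside 11.1% higher and 3.72% lower among all genes tested, 3 of 18 were higher (16.7%) and none lower. These were Top2a (topoisomerase) at 338 and 15 counts, 3.08 (1.84 to 5.56), Cenpe (a kinetochore motor) at 67 and 1 and Kif20b at 52 and 0. Plk1 and Birc5 were not past the rule. Replication genes summed to 964 and 78 counts, a ratio of 1.69 (1.34 to 2.16), or 0.973 on library totals, with Lig1 (DNA ligase) the 1 of 17 called, at 129 and 3 counts, 5.88 (1.97 to 28.9). Of p53 targets Trp53 itself was called at 45 against 0, and the list summed to 0.956 (0.654 to 1.44).

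The summed level of hypoxia-induced genes was lower in the combination pool. The list of 15 genes outside glycolysis summed to 189 counts in the combination pool and 74 in the inhibitor pool, a ratio of 0.349 (0.265 to 0.463), and to a lower ratio of 0.201 on library totals. Bnip3, a HIF target that removes mitochondria, had 22 and 31 counts, a ratio of 0.0970 (0.0535 to 0.173), and Higd1a 30 and 13, a ratio of 0.315 (0.160 to 0.659). These were the 2 of 4 tested that were called, beside 3.72% lower among all genes tested. P4ha1 and Kdm3a were not past the rule, at 24 counts against 0 and 31 against 8. Bnip3 alone gave 41.9% of the list's counts in the inhibitor pool. In the arm without inhibitors the list summed to 3597 counts with anti-PD-1 and 5004 in the control pool, a ratio of 1.11 (1.06 to 1.16). In the KS100 arm it summed to 16 counts with anti-PD-1 and 67 without, a ratio of 0.458 (0.248 to 0.799), which was not past the rule.

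Glycolysis genes did not move together. Ldha (lactate dehydrogenase A, also a HIF target) had 300 counts (886.3 CPM) in the combination pool and 192 (7208 CPM) in the inhibitor pool, a ratio of 0.213 (0.178 to 0.257). Aldoa (aldolase, abundant in muscle) was higher at 442 and 13 counts, 4.65 (2.69 to 8.79), and Hk2 (hexokinase) at 192 and 5 counts, 5.25 (2.21 to 16.3). The list of 17 genes summed to 0.738 (0.649 to 0.840), with Tpi1 and Pkm not past the rule. Of 10 tested 2 were higher (20%) and 1 lower (10%), beside 11.1% and 3.72% of all genes tested.

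Some ribosomal protein genes were lower in the combination pool, while most did not pass the rule and neither did their sum. The 30 listed genes summed to 4160 counts in the combination pool and 891 in the inhibitor pool, a ratio of 0.638 (0.593 to 0.687), and to 0.368 on library totals, where the list was lower. Of 28 tested 9 were lower (32.1%), beside 3.72% of all genes tested, and Rplp2 alone was higher. Rpl37 had 100 and 131 counts, a ratio of 0.104 (0.0796 to 0.136), Rpl13 102 and 60, 0.232 (0.167 to 0.325), Rpl5 50 and 28, 0.244 (0.151 to 0.402), and Rpl22 57 and 31, 0.251 (0.159 to 0.403). Rplp1, with the most counts, was at 1.12 (0.955 to 1.33). Over all genes with an Rpl or Rps symbol, 29 of 72 tested were lower and 1 higher. Of the 147 genes of any kind with 20 counts in both pools, 58 were lower and 11 higher. These 147 include ribosomal protein genes such as Rpl37 and Rpl13, and no count without them was made. Asking for 20 counts in the shallow inhibitor pool also favours genes that are high there. Whether lower calls were particular to ribosomal protein genes was therefore not tested. Single values are uncertain, since reads of these genes can also match their many processed pseudogenes.

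Translation factors ran the other way on the main scaling, with 6 of 16 higher (37.5%) and 1 lower (6.25%). Over all genes tested 11.1% were higher and 3.72% lower. The sum of translation factors, 1.49 (1.31 to 1.70), became 0.860 on library totals. Pabpc1 (poly(A)-binding protein) had 639 counts in the combination pool and 27 in the inhibitor pool, 3.23 (2.20 to 4.95), Eif3c 219 and 3, 9.97 (3.37 to 48.7), and Eif4g1 155 and 2, 10.6 (2.88 to 88.2). Eef1b2 was lower at 206 and 76 counts, 0.370 (0.283 to 0.488).

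Stress lists held calls in both directions except among heat shock genes, of which 2 of 8 tested were higher and none lower. The ATF4 list had 2 higher and 2 lower of 12 tested (16.7% each). The NRF2 list had 2 and 2 of 10 (20% each), beside 11.1% higher and 3.72% lower among all genes tested. In the ATF4 and unfolded protein list, Calr (calreticulin, at 204 and 5 counts, 5.57, 2.35 to 17.4) and Hsp90b1 were higher, Psat1 (serine synthesis, at 45 and 21 counts, 0.293, 0.171 to 0.517) and Xbp1 lower, and Atf4 not past the rule at 0.514 (0.298 to 0.937). Among cytosolic heat shock genes Hsp90aa1 was higher at 536 and 18 counts, 4.07 (2.55 to 6.92), and its paralog Hsp90ab1 not past the rule at 1227 and 292, 0.574 (0.505 to 0.655). In the NRF2 and redox list Sqstm1 (p62) and Gpx1 were higher, at 249 and 11 and at 83 and 2 counts, while Fth1 (ferritin heavy chain) was lower at 84 and 33, 0.348 (0.230 to 0.537), and Mt1 (metallothionein) at 63 and 26, 0.331 (0.207 to 0.545). The 3 lists summed to 1.16 (0.995 to 1.36), 0.933 (0.836 to 1.04) and 0.902 (0.772 to 1.06), none past the rule.

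Of the remaining lists, lysosomal genes summed to 1.68 (1.36 to 2.09). Grn (progranulin) and Atp6ap1 were higher among 16 tested (12.5%, beside 11.1% of all genes tested). Cholesterol synthesis genes summed to 1.15 (0.886 to 1.51), with Cyp51 the 1 of 7 higher (14.3%). Nuclear respiratory chain genes summed to 0.806 (0.703 to 0.927), with Cox6c and Ndufs1 lower among 20 (10%, beside 3.72% of all genes tested). Immediate early genes summed to 1.04 (0.716 to 1.57) and cell death genes to 2.49 (1.32 to 5.27), with Klf6 the only member of either called. Aldehyde dehydrogenase genes held 49 counts in the combination pool and 15 in the inhibitor pool, and complement genes 63 and 4, with no member tested.

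**Figure D3:**
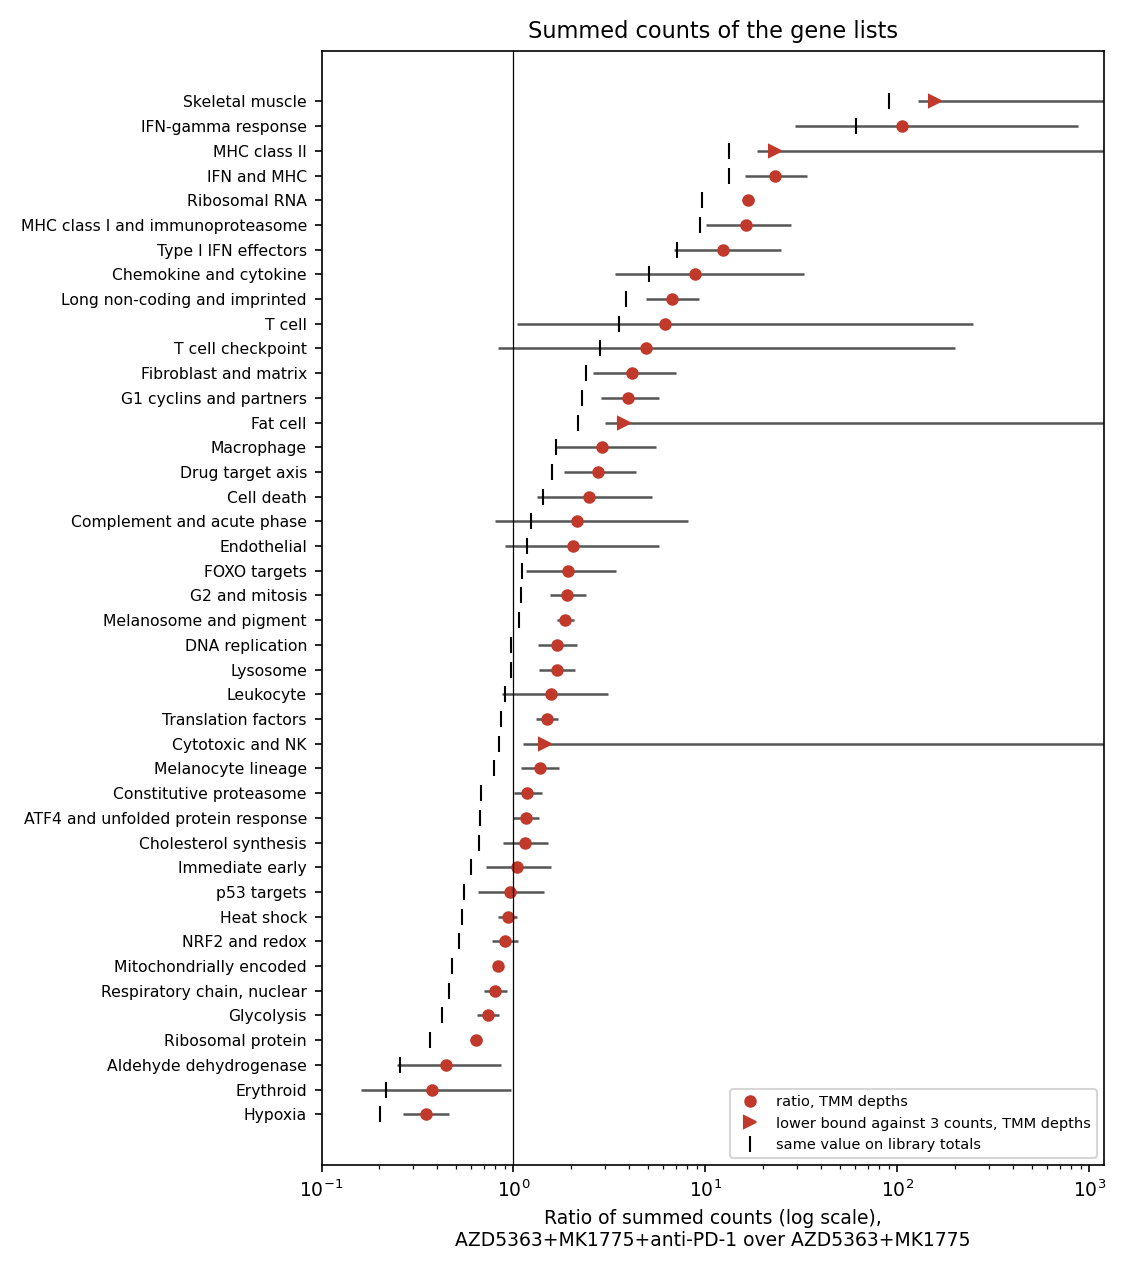
Ratio of summed counts, combination over inhibitor pool, on a log axis for each gene list with at least 20 summed counts in either pool, with the 95% exact interval as a line that runs off the axis where it has no upper end. Triangles are lower bounds against 3 counts and short black bars the same values on library totals, and the interferon, MHC and muscle lists stay to the right of 1 on either scaling, while hypoxia stays to the left.

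Mitochondrial RNA differed in opposite directions from gene to gene. The 13 mitochondrially encoded protein genes made up 5.19% of counts in the combination pool and 10.9% in the inhibitor pool, a ratio of 0.828 (0.796 to 0.861). Of 10 tested, mt-Nd2 (complex I) was higher at 3685 and 51 counts, 9.87 (7.49 to 13.3), and mt-Nd5 at 1042 and 61, 2.33 (1.80 to 3.07). The 5 lower were mt-Cytb (complex III) at 3179 and 1288 counts, 0.337 (0.316 to 0.360), mt-Co2 at 5 and 115, mt-Atp6 at 2 and 47, mt-Co3 at 0 and 31 and mt-Nd3 at 0 and 21. The mt-Co2 ratio was 0.00594 (0.00189 to 0.0143), and mt-Co3 was at least 75.6-fold lower. Mt-Nd1 and mt-Nd4 were near 1, at 0.951 (0.880 to 1.03) and 1.13 (1.03 to 1.25), and at 1.13 mt-Nd4 falls below 1 on library totals.

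A nuclear copy on chromosome 1 is nearly identical to part of the mitochondrial genome that holds mt-Co2, mt-Atp6 and mt-Co3, so their values are uncertain. The mt-Nd3 value may be uncertain too. Gm28438 (345 bases) lies beside Gm28437 (783 bases) there, as mt-Nd3 (348 bases) lies beside mt-Co3 (784 bases). The copies were lower too. Gm28437, Gm28438 and Gm28661 had 12, 8 and 2 counts in the combination pool and 82, 39 and 31 in the inhibitor pool. Gm10925, a further copy in that stretch, had 87 and 83 counts, a ratio of 0.143 (0.105 to 0.196), and Gm13341, an unprocessed pseudogene on chromosome 2, had 73 and 72. In the control pool mt-Co2 stood at 11.3 CPM, beside 14.8 CPM in the combination pool and 4317 CPM in the inhibitor pool. The KS100 pool was also high, at 938.6 CPM.

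Ribosomal RNA was higher in the combination pool. The mitochondrial ribosomal RNA genes mt-Rnr1 and mt-Rnr2 had 22961 and 26439 counts in the combination pool and 216 and 379 in the inhibitor pool, ratios of 14.5 (12.7 to 16.7) and 9.53 (8.61 to 10.6). Gm42418 (chromosome 17, 39846958 to 39848788, plus strand), which overlaps a nuclear ribosomal RNA repeat, had 43490 and 167 counts, a ratio of 35.6 (30.6 to 41.7). The control pool held 0.121% of its counts in these genes. The small nucleolar RNA Snord13 had 253 and 0 counts, and Malat1, a nuclear long non-coding RNA, 1841 and 11, a ratio of 22.9 (12.8 to 45.9). Malat1 made up most of its list's 2051 and 42 counts, in which Gas5 was lower at 46 and 22, 0.286 (0.168 to 0.499), and Kcnq1ot1 and Neat1 were not past the rule. The kit primes on poly(A) tails, and the part of this difference in the other results was not tested.

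**Figure D4:**
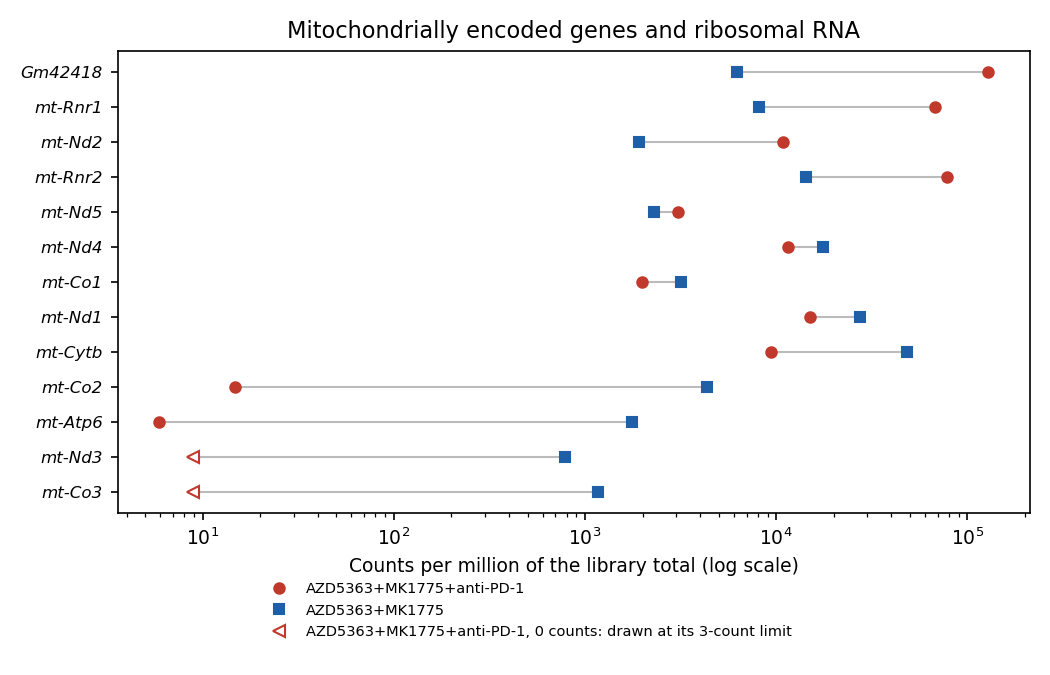
CPM of the library total, on a log axis, of the mitochondrially encoded and ribosomal RNA genes tested, ordered by ratio, with circles for the combination pool and squares for the inhibitor pool. Gm42418, mt-Rnr1 and mt-Nd2 lie to the right in the combination pool, and mt-Co2, mt-Atp6, mt-Nd3 and mt-Co3 far to the left, with open triangles at the 3-count limit for 0 counts.

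The genes with intervals far from 1 that belong to no list included Mgll, Snord13 and Ybx1, which were higher, and Atp5k, Gm10800 and Pabpc4, which were lower. Mgll (monoglyceride lipase) had 746 counts in the combination pool and 2 in the inhibitor pool, a ratio of 51.0 (14.1 to 422), and was lower in the arm without inhibitors, at 35 counts with anti-PD-1 and 208 in the control pool, 0.260 (0.176 to 0.373). Ybx1, an RNA-binding protein gene, had 265 and 1 counts, a ratio of 36.2 (6.44 to 1435). Atp5k (ATP synthase subunit e) had 14 and 27 counts, 0.0708 (0.0343 to 0.140), and Pabpc4 17 and 22, 0.106 (0.0526 to 0.208).

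Called genes differed in exon length by direction. Among nuclear protein-coding genes tested the median merged exon length was 5907 bases for the 299 higher, 2680.5 bases for the 92 lower and 5441 bases for the 2349 not called. In the longest quartile of 685 genes 13.1% were higher and 0.438% lower, and in the shortest 10.5% and 7.74%. Nuclear protein-coding genes at the lengths of the longest quartile, tested or not, took 20.9% of all nuclear protein-coding counts in the combination pool. They took 14.7% in the inhibitor pool, beside 12.7% in the control pool. The median over all tested members, called or not, was 1918.5 bases for the ribosomal protein list, 2074 bases for the muscle list and 3397.5 bases for the interferon and MHC lists. The part of length in the calls was not tested.

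**Figure D5:**
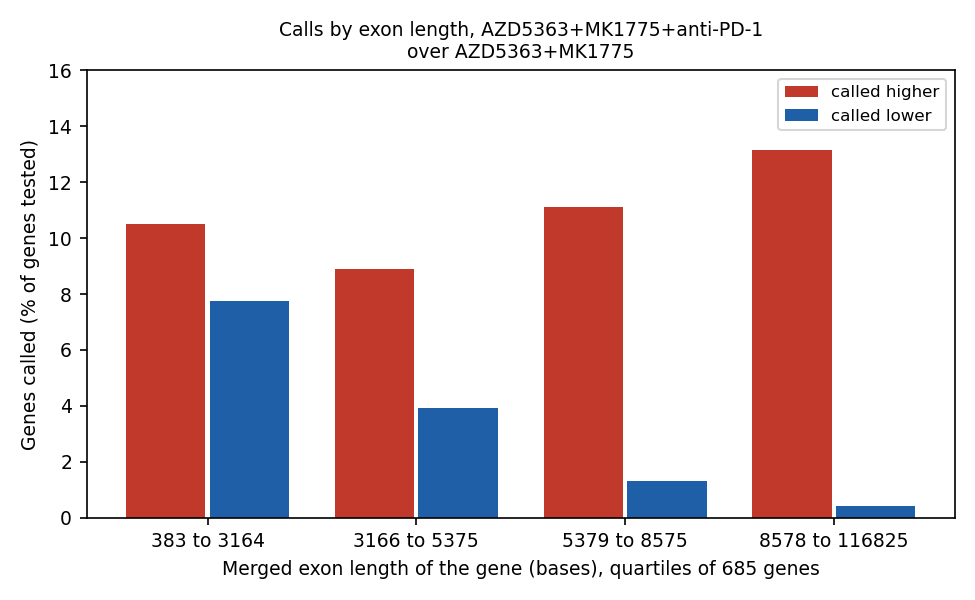
Percent of nuclear protein-coding genes called higher (left bar) and lower (right bar) in the combination pool, by quartile of merged exon length. The share called lower is 7.74% in the shortest quartile and 0.438% in the longest.

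Of the genes named as higher outside the interferon and MHC lists, those still higher on library totals were the muscle genes, Gm42418, mt-Rnr1, mt-Rnr2, mt-Nd2, Malat1, Snord13, Mgll, Ybx1, C1qa, Syt4, Col1a2, Ccnd1, Ccnd2, Atm, Aldoa, Eif3c, Eif4g1 and Atp6ap1. The others did not pass the rule there. Since library totals move every ratio down, a gene lower on the main scaling could not lose its call.

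The calls were set beside those of the antibody in the other arms, which share no library with this pair. Of the 309 genes higher, 290 were tested in the arm without inhibitors, where 19 were also higher and 14 lower. Over all 8119 genes tested in that arm, 2.69% were higher and 2.14% lower. The 19 are 6.15% of the 309 and 8.72% of that arm's 218. Of the 104 lower, 99 were tested there and 6 were also lower, 5.77% of the 104 and 3.45% of that arm's 174. In the KS100 arm, with 209 genes tested at totals of 25521 counts with antibody and 44748 without, 4.31% were higher and 34% lower. Of the 309 genes higher here, 25 were tested in the KS100 arm, where 2 were higher and 3 lower. Of the 104 lower here, 56 were tested there, and 37 of these 56 were lower, beside 34% of the 209 genes tested. The 37 are 52.1% of that arm's 71 lower genes. They are 35.6% of all 104, a share that also counts the genes not tested there.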

How the data were processed

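The kit was QuantSeq 3′ FWD, which sequences 3′ ends of polyadenylated RNA, on a MiSeq, per the labels' protocols. Tumours of a treatment were pooled before extraction, per the series' design text. The deposited table holds whole-number read counts per Ensembl gene, made by the authors with no normalisation evident in the values. Per the submitters' processing notes, HISAT2 2.1.0, HTSeq and bcl2fastq were used with GRCm38. The annotation release, like the strand setting and the handling of multiply mapped reads, is not given in the sources used here, so overlapping, antisense and duplicated genes are uncertain. The 92 spike-in rows were all at 0 and left out.

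Symbols, coordinates and merged exon lengths came from GENCODE M21, which held 42548 of 43629 genes. TMM depths (edgeR 4.0.16, R 4.3.3) were estimated over all 6 pools, which gave a depth ratio of 7.32, and 12.7 from totals. Genes with 20 counts in either pool were compared by exact conditional (Clopper-Pearson) 95% intervals of the ratio (scipy 1.17.1). Log2 ratios add a prior count of 2. A ratio against 0 is a bound against 3 counts. Reads carry no molecular identifiers in the table, so intervals and limits cover counting error only. The rule was tested on simulated data. Tried as alternatives were DESeq2 1.42.0 size factors, totals with and without mitochondrial and ribosomal RNA, TMM on the pair alone, thinning, other minimum counts, a stricter bound and another prior count. RefSeq promoters came from a table of GRCm38.p6.

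The genes and the 45 lists (797 genes, 4 without a row) were chosen with earlier results of these data known. Named genes were, per list, up to 4 called members with the interval bound farthest from 1 and up to 2 uncalled members with the most counts, the 20 highest and 15 lowest genes by that bound, and the drug and antibody targets. Other members were named to describe marker lists, after their values were seen. Some genes are not reported here by name, though they stay in the counts and sums.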

Additional observations from a re-analysis of the deposited data

Results flagged for a closer look

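For 7 gene lists the antibody's ratio was past the rule of size in the AZD5363+MK1775 arm, while its interval lay on the other side of 1 in the arm without inhibitors. The difference between the arms was not tested, since each ratio compares 1 library with another. The interferon-gamma list stood at 105.7 in the AZD5363+MK1775 arm and at 0.852 (0.741 to 0.978) in the arm without inhibitors. Type I interferon effectors stood at 12.3 and 0.849 (0.751 to 0.959), and MHC class I and immunoproteasome genes at 16.2 and 0.910 (0.851 to 0.973), in the same order. The list of AKT and WEE1 partners stood at 2.77 and 0.907 (0.844 to 0.975), and the hypoxia list at 0.349 and 1.11 (1.06 to 1.16). Ribosomal RNA stood at 16.7 and 0.455 (0.414 to 0.5004), and long non-coding and imprinted RNAs, mostly Malat1, at 6.67 and 0.801 (0.747 to 0.859).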

How the results depend on the processing

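The counts of genes higher and lower depended on the scaling. They were 309 and 104 as reported, 261 and 112 with DESeq2 size factors, 76 and 232 with library totals, 103 and 198 with TMM factors from the 2 pools alone, and 151 and 155 with totals that leave out mitochondrially encoded and ribosomal RNA genes. Each scaling alternative raises the depth ratio and so moves every ratio down, which fixes that higher calls are lost and lower calls kept, and says nothing on stability. Over all genes tested the median log2 ratio was 1.10 as reported, 1.00 with DESeq2 size factors, 0.41 with library totals, 0.54 with TMM of the pair and 0.72 with the reduced totals. With the combination pool thinned to 26639 counts the median turned to -0.35, since few genes then pass through that pool, and medians over 20 draws were 46.5 genes higher and 42.5 lower. A minimum of 10 counts gave 168 lower and a median of 0.97, of 50 counts 271 higher and 38 lower, and of 1 count 302 lower and a median of 0.65. Intervals beyond 2-fold left 160 higher and 61 lower, and a prior count of 0.5 gave a median of 1.21. The interferon-gamma ratio of 105.7 was lowest, at 60.9, with library totals. The MHC class I ratio of 16.2 was 9.33 with library totals, below its interval, and at least 10.4 under the others, and both lists stayed past the rule under every scaling. No paired analysis was possible because each treatment has 1 library. Depth of the inhibitor pool limits all ratios: a gene at 0 there may stand at up to 112.6 CPM.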
